A study of Mus musculus with 8 samples.

Results

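The genes described here are 41 matrix and mesenchymal genes, out of the 21887 protein-coding genes of chromosomes 1 to 19 and of X and Y: 11 collagen genes, 12 other genes of the extracellular matrix, 4 of the cytoskeleton and of adhesion, 11 of transcription factors that act in mesenchymal cells, and 3 receptor genes. They were chosen by name, with earlier results on the same 2 peak lists known, and all 41 were found in RefSeq's gene table for GRCm38.p6 (mm10). H3K79me2, the dimethylated form of lysine 79 of histone H3, was mapped by ChIP-seq, which sequences the DNA that an antibody pulls down, in 2 kinds of culture of mouse spermatogonial stem cells, from which sperm production is sustained. The treated cultures were grown for 7 days with 2 µM EPZ5676, an inhibitor of DOT1L, the enzyme that methylates H3K79. The control cultures received vehicle, which the protocols name as DMSO and the short sample descriptions as EtOH. For both, the donors were mice of the LacZ reporter strain B6.129S7-Gt(ROSA)26Sor/J, whose testes were taken at 7 days of age. The cells had grown for 2 months on SNL 76/7 feeders without serum, with GDNF at 10 ng/mL and FGF2 at 0.5 ng/mL. Each condition has 2 H3K79me2 samples and 2 inputs (8 samples in 4 groups), but 1 peak list, so the values carry no replicate error and the conditions could not be tested against each other. Read depth is unknown here.

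H3K79me2 accompanies transcription by RNA polymerase II and lies over the 5′ part of genes that a cell uses, which makes a peak over a gene a footprint of activity in the cells that were sampled. Collagens, fibronectin and fibrillins form the fibres and microfibrils around mesenchymal cells, and factors such as TWIST, PRRX1, ZEB and SNAIL govern mesenchymal and fibroblast programmes, in part downstream of TGF-beta. The SNL 76/7 feeders are a mouse fibroblast line, and the protocols name no step that removed them before the chromatin was fixed. In chromatin pooled from a culture, a mark carried by few cells and a weak mark carried by many cannot be told apart.

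A gene was called marked in a list when at least 1 bp of its span lay under a peak. The members' coverage in both lists was known when they were chosen, and is given as a description. Of the 41 genes, 22 were marked after EPZ5676, against 12.3% of all protein-coding genes, and 29 were marked in the control, against 52.7%. Both lists marked 21 genes, or 72.4% of the 29 marked in the control, where 19.3% of all control-marked genes had an EPZ5676 peak (19.9% on the autosomes, since the EPZ5676 list has 0 peaks on X and Y). Another 8 genes had control peaks only, 1 gene, Tnc, had EPZ5676 peaks only, and 11 had no peak in either list. With peaks of −log10 q of at least 2 in both lists, 9 of 25 control-marked genes had an EPZ5676 peak, against 3.45% of all control-marked genes. By −log10 p the control list admitted weaker peaks than the EPZ5676 list, whereas the lowest −log10 q was nearly the same (1.05 and 1.04). Held to the lowest −log10 p of the EPZ5676 list, the control list marked 18 of the 41 genes and 9788 of the 21887 protein-coding genes, a similar share. Of the 18 genes, 14 had an EPZ5676 peak, against 20.7% of all control-marked genes at that limit. Col5a2, Col6a3, Prrx1, Ltbp1, Cd44, Fbn1 and Col4a2 then had EPZ5676 peaks alone.

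**Figure D1:**
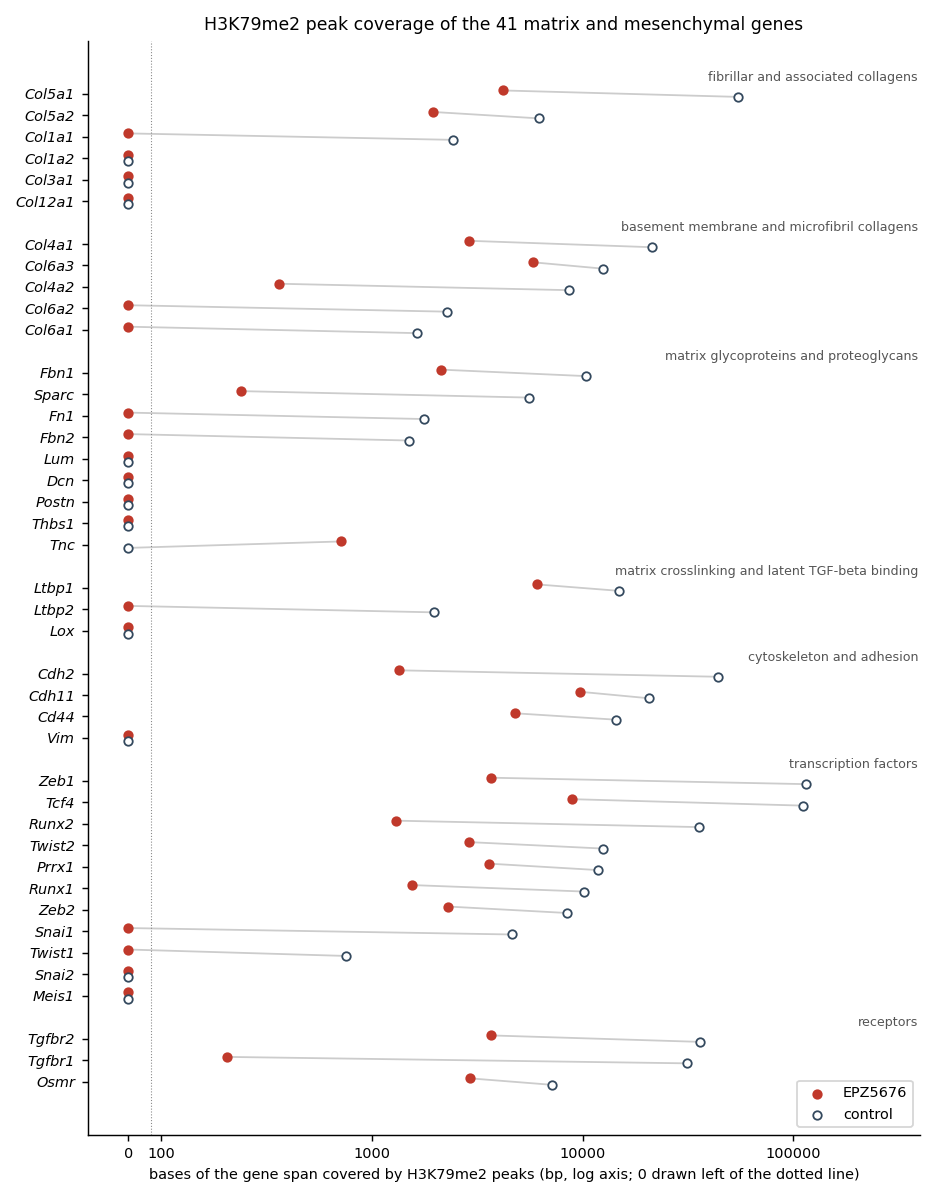
Bases of each gene span covered by H3K79me2 peaks after EPZ5676 (filled) and in the control (open), on a log axis in bp, with the 41 genes grouped by role; each point is 1 peak list. Among the genes with peaks in both lists, Cdh11, Col6a3 and Osmr have the closest pairs of points, whereas Tgfbr1 and Cdh2 have long control and short EPZ5676 coverage.

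RefSeq promoter windows of GRCm38.p6, 250 bases before to 50 after a gene start, were listed for 27 of the 41 genes, and the window nearest the 5′ end of the span was used. No EPZ5676 peak touched any of the 27 windows, against 0.0515% of 17492 windows of all protein-coding genes. A control peak touched 2 of the 27, or 7.41%, against 8.89% of all windows, a share near the background. Those at Col6a3, which encodes a chain of the microfibril collagen VI (chr1:90843922-90844221, minus strand), and at Snai1, the gene of the repressor SNAIL (chr2:167537945-167538244, plus strand), are shown because a control peak starts in them, with the bases inside the control peak in capitals.
Col6a3: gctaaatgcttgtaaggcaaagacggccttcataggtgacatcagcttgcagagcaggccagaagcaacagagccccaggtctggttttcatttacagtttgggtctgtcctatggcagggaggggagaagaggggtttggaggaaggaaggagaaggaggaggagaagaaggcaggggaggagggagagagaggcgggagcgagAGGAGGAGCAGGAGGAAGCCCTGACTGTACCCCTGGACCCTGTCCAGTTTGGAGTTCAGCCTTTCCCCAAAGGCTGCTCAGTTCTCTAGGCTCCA
Snai1: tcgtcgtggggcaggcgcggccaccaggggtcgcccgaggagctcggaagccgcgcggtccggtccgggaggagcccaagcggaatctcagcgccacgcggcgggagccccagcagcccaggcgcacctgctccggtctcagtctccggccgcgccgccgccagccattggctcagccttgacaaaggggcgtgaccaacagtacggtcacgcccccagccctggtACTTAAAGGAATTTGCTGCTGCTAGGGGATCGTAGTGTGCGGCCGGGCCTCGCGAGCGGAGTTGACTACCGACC
The peak took 95 of the 300 bases at Col6a3 and 74 at Snai1, in each case the stretch that runs into the gene.

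Col4a1 and Col4a2, the genes of the collagen IV chains of basement membranes, lie head to head and share a promoter region, so their windows (chr8:11312777-11313076, minus strand, and chr8:11312555-11312854, plus strand) overlap by 78 bases, shown in capitals on each strand.
Col4a1: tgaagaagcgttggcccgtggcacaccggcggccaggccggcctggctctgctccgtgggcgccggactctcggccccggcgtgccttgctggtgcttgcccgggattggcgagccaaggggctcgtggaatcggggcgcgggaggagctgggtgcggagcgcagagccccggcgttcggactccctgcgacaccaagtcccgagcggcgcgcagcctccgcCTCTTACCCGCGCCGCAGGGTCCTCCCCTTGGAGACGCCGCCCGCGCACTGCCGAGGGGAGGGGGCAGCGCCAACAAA
Col4a2: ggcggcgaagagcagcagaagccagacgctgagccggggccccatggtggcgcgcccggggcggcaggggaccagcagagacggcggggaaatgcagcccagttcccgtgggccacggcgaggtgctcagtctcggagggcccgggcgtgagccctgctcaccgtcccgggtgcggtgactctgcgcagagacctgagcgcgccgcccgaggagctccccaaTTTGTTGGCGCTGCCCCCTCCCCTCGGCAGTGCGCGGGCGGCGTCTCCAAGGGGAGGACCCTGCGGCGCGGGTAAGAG
Neither list has a peak on these windows. The first EPZ5676 peak lay 4283 bp into Col4a1 and 5187 bp into Col4a2, and the first control peak 2217 and 622 bp into them.

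The window of Twist2 (chr1:91801211-91801510, plus strand), a mesenchymal transcription factor gene with peaks in both lists further downstream, is shown with its GC boxes (GGGCGG, or CCGCCC on the other strand) in capitals.
Twist2: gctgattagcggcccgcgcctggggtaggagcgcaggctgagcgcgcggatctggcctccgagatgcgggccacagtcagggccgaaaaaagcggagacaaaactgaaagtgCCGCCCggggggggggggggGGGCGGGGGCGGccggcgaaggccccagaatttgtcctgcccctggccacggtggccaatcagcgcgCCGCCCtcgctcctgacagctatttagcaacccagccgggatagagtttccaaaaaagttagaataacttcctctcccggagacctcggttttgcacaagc
It holds 4 matches and 25 CpG dinucleotides. A GC box was found in 13 of the 27 windows (48.1%), against 46.3% of all windows. Over the 21 listed genes marked in the control, the median number of CpG dinucleotides in the 300 bases was 15, against 22 for all control-marked genes, and over the 6 unmarked ones it was 10.5, against 4.0 for all unmarked genes. The motif TATAAA, searched on both strands, was in 1 of the 21 marked genes, Twist1, and in 3 of the 6 unmarked ones, Col3a1, Vim and Tnc. Of all windows, 6.18% with a control peak in the gene and 21.5% without one hold it. CCAAT, on either strand, was in 14 of the 27 windows (51.9%), against 39.2% of all. CACCTG, on either strand, an E-box of the kind that ZEB and SNAIL factors bind, was in 4 (14.8%), against 19.3%.

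Among the 29 control-marked genes, those with an EPZ5676 peak had the longer control coverage. Both coverages were known when the genes were chosen, so these counts describe the genes and test nothing. All 21 control-marked genes with over 5 kb of control coverage had an EPZ5676 peak, and none of the 8 with less had one. Among the other control-marked genes, an EPZ5676 peak lay on 53.9% of those with over 20 kb of control coverage, on 18.4% of those with 5 to 20 kb and on 4.68% of those with less. The members in the middle range were long genes, with a median span of 109740.5 bp against 27105 bp, so a comparison by span as well as coverage was made. With control-marked genes divided into 7 classes of control coverage and 5 of span, the shares of the members' own classes ranged from 1.20% to 60.6% and summed to 8.62 genes over the 29, where 21 had an EPZ5676 peak. By span alone, an EPZ5676 peak lay on 2.47% of the other genes under 20 kb, 13.8% of those of 20 to 50 kb, 28.7% of those of 50 to 100 kb, 35.1% of those of 100 to 200 kb and 46.4% of longer ones. A control peak lay on 41.2%, 64.5%, 70.2%, 72.0% and 56.5% of the genes of these classes, which summed to 25 genes over the 41, where 29 were marked.

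**Figure D2:**
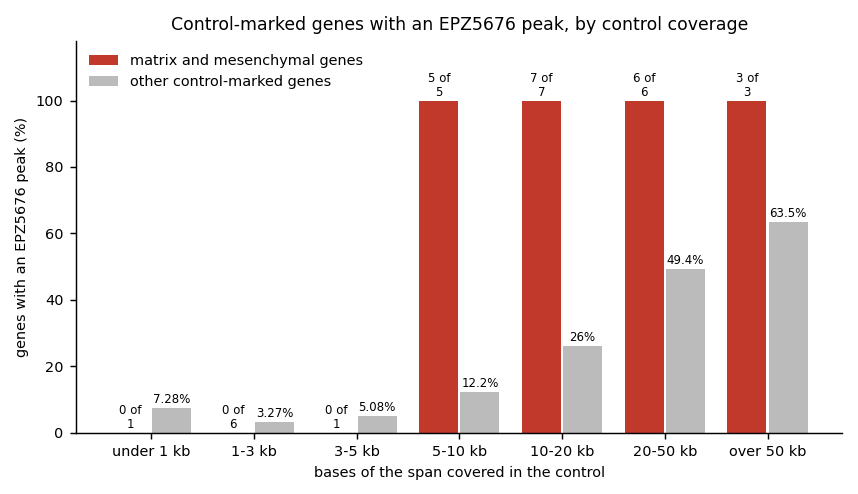
Share of control-marked genes with an EPZ5676 peak, in percent, for 7 classes of control coverage, in the matrix and mesenchymal genes (left bars, with counts) and in the other control-marked genes (right bars). From 5 kb upward each bar of the matrix and mesenchymal genes, which were chosen with their coverage known, is at 100%, while the other genes range from 12.2% to 63.5%.

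EPZ5676 coverage was also longer, relative to control coverage, than over genes as a whole. Over the 41 spans, EPZ5676 peaks covered 71348 bp and control peaks 608961 bp, a ratio of 11.7%, against 2.23% over all other genes. Bases under both kinds of peak made up 8.13% of the control-covered bases of the 41 genes and 1.74% of those of the others. The EPZ5676 coverage came to at least 25% of the control coverage in 8 of the 29 control-marked genes, against 2.16% of all control-marked genes, and to at least 10% in 13 of them, against 4.64%. The 8 were Cdh11, Col6a3, Osmr, Ltbp1, Cd44, Col5a2, Prrx1 and Zeb2. Among genes with both kinds of peak, 11.2% of all reached 25% and 24.0% reached 10%.

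**Figure D3:**
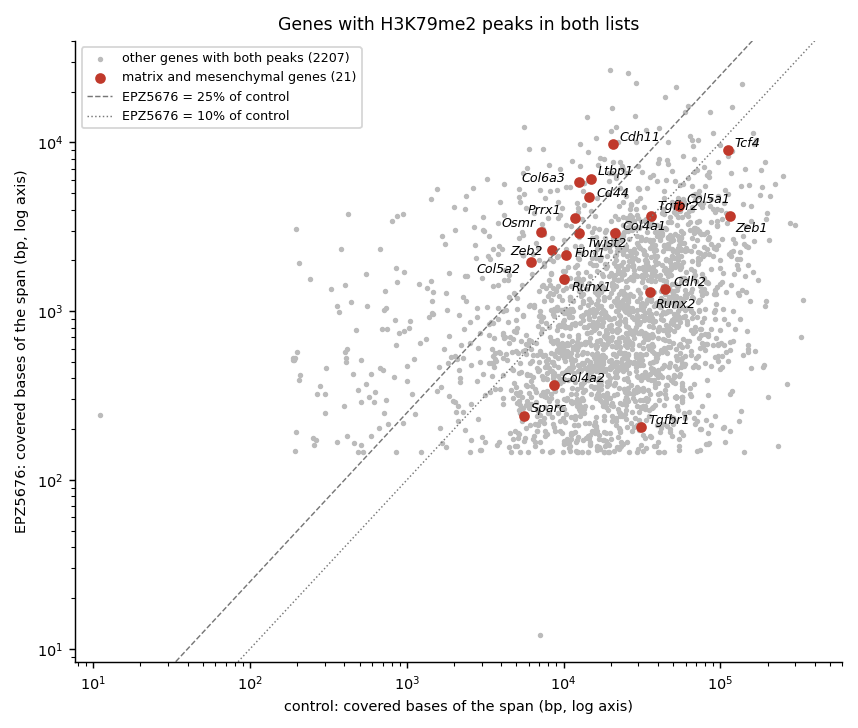
Covered bases of the gene span after EPZ5676 (vertical) against the control (horizontal), both in bp on log axes, for the 21 matrix and mesenchymal genes (labelled) and the 2207 other genes with peaks in both lists; the lines mark 25% and 10%. Cdh11, with 9756 bp under EPZ5676 peaks, against 20543 bp under control peaks, lies well above the 25% line, and Tgfbr1, with 205 bp after EPZ5676 and 31339 bp in control cultures, far below the 10% line.

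Of the 6 fibrillar and associated collagen genes, the 2 of collagen V were marked in both lists, and 3 others had no peak in either list. Col5a1 (chromosome 2, 27886381 to 28039510), whose product nucleates collagen fibrils, had 6 EPZ5676 peaks over 4191 bp and 6 control peaks over 54548 bp. All 6 EPZ5676 peaks lay inside control peaks, between 3982 and 34664 bp from the gene start. The ratio of 7.68% at Col5a1 was reached by 10 of 343 other genes of its class. Col5a2 (chromosome 1, 45374331 to 45503282), the gene of its partner chain, had 1944 bp under EPZ5676 peaks, against 6202 bp under control peaks, or 31.3%. Only 1 of its 3 EPZ5676 peaks overlapped a control peak, and 11 of 87 other genes of its class reached its ratio. Col1a1, which encodes the main chain of collagen I, had 0 bp under EPZ5676 peaks, against 2433 bp under control peaks, which made up 14.5% of its span with a highest fold of 2.65. At Col5a2 control peaks took 4.81% of the longer span, with a highest fold of 2.35. Col1a2, its partner, Col3a1, of collagen III, and Col12a1, of a fibril-associated collagen, had no peak in either list.

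All 5 collagen IV and VI genes were marked in the control, and 3 of them after EPZ5676. Col6a3 (chromosome 1, 90766860 to 90844001), the one whose promoter window holds the start of a control peak, had 6 EPZ5676 peaks over 5797 bp and 10 control peaks over 12562 bp. That ratio of 46.1% was reached by 0 of 361 other genes with 10 to 20 kb of control coverage and a span of 50 to 100 kb, of which 27.7% had an EPZ5676 peak. Its EPZ5676 peaks lay 1211 to 18393 bp from the gene start, the widest of them over 1681 bp. Col6a1 and Col6a2, neighbours on chromosome 10 that encode the other chains of the same collagen VI molecule, had no EPZ5676 peak and 1637 and 2274 bp of control coverage. They are shorter genes, and in their classes 1.20% and 3.95% of genes had an EPZ5676 peak. Col4a1 (chromosome 8, 11198423 to 11312889) had 5 EPZ5676 peaks over 2892 bp and 15 control peaks over 21346 bp. Col4a2, on the other side of the shared promoter, had 364 bp under EPZ5676 peaks, against 8667 bp under control peaks. Col4a1 had more coverage than Col4a2 in both lists.

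Of the 9 genes of matrix glycoproteins and proteoglycans, 3 were marked after EPZ5676 and 4 in the control. Fbn1 (chromosome 2, 125300594 to 125506485), the fibrillin-1 gene of elastic microfibrils, had 4 EPZ5676 peaks over 2141 bp and 7 control peaks over 10333 bp, all of the control coverage within 26222 bp of its 5′ end. Fbn2, of the related fibrillin-2, had 0 bp under EPZ5676 peaks and 1506 bp under control peaks. Sparc, which encodes a collagen-binding glycoprotein, had a single EPZ5676 peak of 241 bp and 5565 bp of control coverage. Fn1, the fibronectin gene, had 0 bp under EPZ5676 peaks, against 1774 bp under control peaks. Tnc (chromosome 4, 63959785 to 64047015), the tenascin-C gene, was the reverse case, with 2 EPZ5676 peaks over 713 bp and no control peak. Both lay in the gene body, 37997 to 62721 bp from the start, and at least 431955 bp from any control peak. An EPZ5676 peak lay on 4.53% of all genes without a control peak, and on 28.7% of other genes with a span of 50 to 100 kb. Lum and Dcn, small proteoglycan genes of collagen fibrils, Postn, the periostin gene, and Thbs1, the thrombospondin-1 gene, had no peak in either list.

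Ltbp1 (chromosome 17, 75005480 to 75392512), whose product tethers latent TGF-beta to the matrix, had 13 EPZ5676 peaks over 6088 bp and 15 control peaks over 14904 bp. That is a ratio of 40.8%, which 6 of 62 other genes of its class reached. Only 4 of the 13 EPZ5676 peaks overlapped a control peak, and the others lay 1521 to 24915 bp from one. Ltbp2, a relative that binds fibrillin, had 0 bp under EPZ5676 peaks, against 1965 bp under control peaks. Lox, the gene of the collagen-crosslinking lysyl oxidase, had no peak.

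The 2 cadherin genes differed widely. Cdh11 (chromosome 8, 102632095 to 102785493), of the mesenchymal OB-cadherin, had 12 EPZ5676 peaks over 9756 bp and 24 control peaks over 20543 bp. Its ratio of 47.5% was the highest of the 21 genes, and 4 of 295 other genes of its class reached it. By EPZ5676 coverage it ranked 31 among all protein-coding genes. Of its 12 EPZ5676 peaks, 6 overlapped a control peak, and the widest ran 1911 bp. Cdh2 (chromosome 18, 16588877 to 16809246), of N-cadherin, which many cell types besides mesenchyme use, had 3 EPZ5676 peaks over 1348 bp and 25 control peaks over 44032 bp, or 3.06%. Cd44, a hyaluronan receptor gene, had 8 EPZ5676 peaks over 4766 bp and 14 control peaks over 14483 bp, or 32.9%, which 3 of 361 other genes of its class reached. Vim, which encodes the intermediate filament protein vimentin, had no peak in either list on its span of 8516 bp.

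Among the 11 transcription factor genes, 7 were marked in both lists. Twist2 (chromosome 1, 91801461 to 91848034) had 6 EPZ5676 peaks over 2907 bp and 7 control peaks over 12557 bp, a ratio of 23.2% that 3 of 976 other genes of its class reached. Prrx1 (chromosome 1, 163245119 to 163315145), a homeobox gene of limb and connective tissue mesenchyme, had 2 EPZ5676 peaks of 1727 and 1856 bp and 14 control peaks over 11779 bp. Both its EPZ5676 peaks overlapped control peaks, 10120 to 20158 bp from the 5′ end, and the ratio of 30.4% was reached by 4 of 361 genes of its class. Zeb2 (chromosome 2, 44983512 to 45117442) had 2311 bp under EPZ5676 peaks, against 8457 bp under control peaks, with 2 of its 6 EPZ5676 peaks on a control peak. Its paralogue Zeb1 (chromosome 18, 5591327 to 5775468), which like ZEB2 represses epithelial genes, had 6 EPZ5676 peaks over 3671 bp and 17 control peaks over 114647 bp. The ratio was 3.20% at Zeb1, which 51 of 343 other genes of its class reached, and 27.3% at Zeb2, which 11 of 87 reached. Control peaks took 62.3% of the span of Zeb1 and 6.31% of that of Zeb2.

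Tcf4 (chromosome 18, 69343429 to 69687967), which encodes an E protein that pairs with TWIST factors, had 20 EPZ5676 peaks over 8951 bp and 68 control peaks over 111148 bp, the most peaks of any of the 41 genes in either list. Runx2, the master factor of bone-forming cells, had 1301 bp under EPZ5676 peaks, against 35673 bp under control peaks, although its span overlaps that of Supt3 and the coverage cannot be given to Runx2 alone. Runx1, a factor of blood cells and mesenchyme, had 1560 bp after EPZ5676 and 10119 bp in control cultures. Snai1 had no EPZ5676 peak, although its control peak covered 100% of its 4620 bp with a fold enrichment of 4.13, above 92.9% of control peaks. Twist1 had 0 bp under EPZ5676 peaks, against 759 bp under control peaks. Snai2, the gene of the repressor SLUG, and Meis1, a homeobox cofactor gene of 139224 bp, had no peak in either list.

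The 3 receptor genes were marked in both lists. Tgfbr2 (chromosome 9, 116087695 to 116175363), the type II receptor that binds TGF-beta, had 6 EPZ5676 peaks over 3682 bp and 10 control peaks over 35934 bp, a ratio of 10.2%. All 6 lay inside control peaks, 2932 to 12522 bp from the start. Tgfbr1 (chromosome 4, 47353222 to 47414926), the type I receptor that signals with it, had 1 EPZ5676 peak of 205 bp and 1 control peak of 31339 bp, or 0.654%, a ratio that 337 of 673 other genes of its class reached. Osmr, the oncostatin M receptor gene, had 5 EPZ5676 peaks over 2936 bp and 6 control peaks over 7155 bp, or 41%, which 7 of 217 genes of its class reached.

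**Figure D4:**
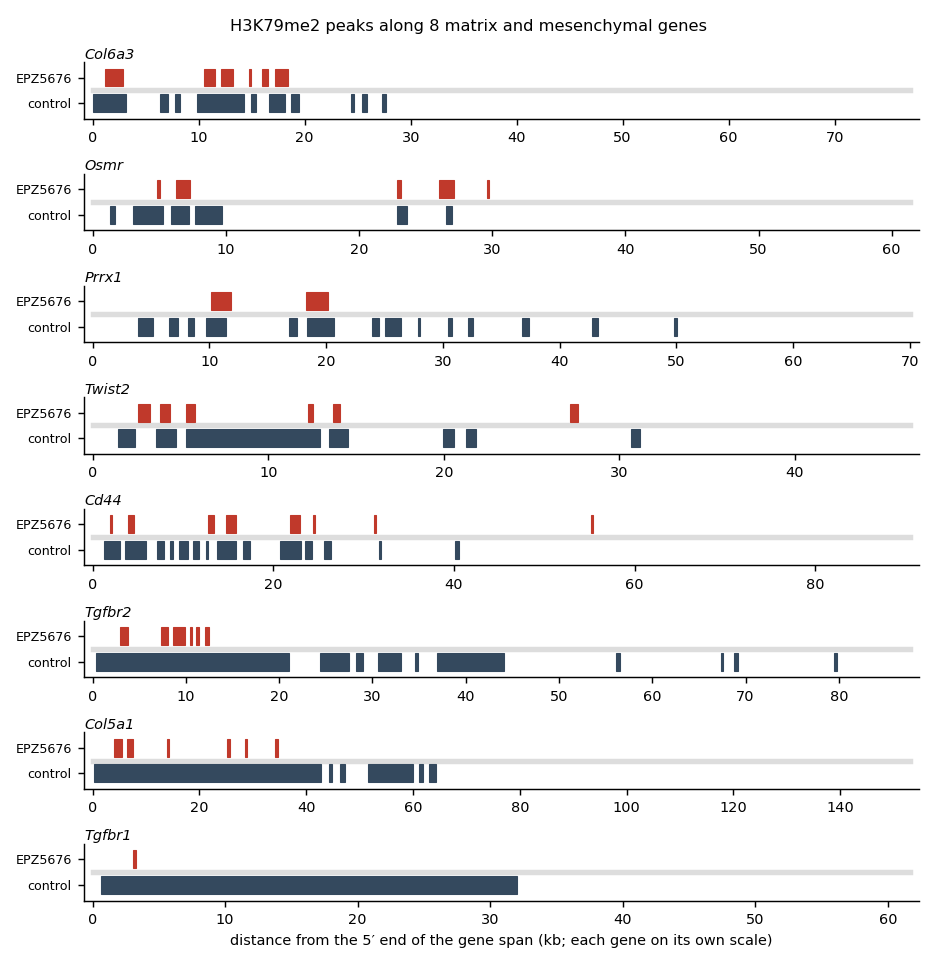
H3K79me2 peaks after EPZ5676 (upper row) and in the control (lower row) along 8 of the genes, by distance in kb from the 5′ end of the span (grey bar). Tgfbr1, Col5a1 and Tgfbr2 have control domains of 31339, 42371 and 20777 bp with all EPZ5676 peaks inside control peaks, whereas Col6a3, Osmr, Prrx1, Twist2 and Cd44 have several shorter control peaks, of 7659 bp at most.

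The 8 genes with a ratio of at least 25% had a highest control fold below 3, from 2.3 at Prrx1 to 2.69 at Zeb2. These folds were not low for the control list, whose median was 2.3: they lay above 50.3% to 77.9% of control peaks. The authors' fold enrichment per peak is used here only within each list. In 24 of the 29 control-marked genes the highest control fold was below 3, and 17 of these had an EPZ5676 peak, with a median ratio of 23.2% (3.06 to 47.5%). In the other 5, Zeb1, Col5a1, Snai1, Tgfbr1 and Tgfbr2, 4 had an EPZ5676 peak, with a median ratio of 5.44% (0.654 to 10.2%). The other genes split alike in their ratios: the median was 16.5% below a control fold of 3 and 3.14% from 3 upward, among genes with both peaks. In both groups an EPZ5676 peak was more frequent from 3 upward than below it, but the levels differed. It lay on 12.4% of 4559 other genes below 3 and on 23.7% of 6940 from 3 upward. Of the matrix and mesenchymal genes the shares were 70.8% and 80.0%, the latter only 4 of 5 genes. Of the genes with a control fold below 3, a ratio of at least 25% was found in 33.3% of the matrix and mesenchymal genes and in 5.00% of the others.

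The EPZ5676 peaks in these genes had the fold enrichment typical of their list. The 121 peaks had a median width of 455 bp (147 to 1911 bp) and a median fold enrichment of 2.76 (2.47 to 3.23), against 402 bp and 2.75 for all 9182 EPZ5676 peaks and 441 bp and 2.77 for the 5825 peaks in other control-marked genes. Of the 121, 20 were at least 1 kb wide (16.5%), against 8.46% of all EPZ5676 peaks and 11.9% of the 5825. A control peak was overlapped by 83 of the 121 (68.6%), against 55.8% of all EPZ5676 peaks and 84.4% of the 5825, and the 38 others had a control peak at a median distance of 3145.5 bp, with 23 of them within 5 kb. By gene, all EPZ5676 peaks lay on control peaks at Col4a1, Col4a2, Col5a1, Prrx1, Runx2, Sparc, Tgfbr1, Tgfbr2 and Zeb1, and 18 of 20 did at Tcf4.

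Each span was divided into 5 equal bins from its 5′ end. Coverage in both lists was concentrated toward the 5′ end. In 16 of the genes with both kinds of peak, a listed strand and a span of at least 20 kb, 60.0% of the EPZ5676-covered bases and 48.2% of the control-covered bases lay in bin 1. In 1567 other such genes the shares were 61.7% and 35.3%. Bin 2 had 23.1% of the EPZ5676-covered and 32.2% of the control-covered bases, and bins 4 and 5 held 1.83% and 0.327% of the EPZ5676-covered bases. In 6 of the 16 genes another bin held more EPZ5676-covered bases than bin 1. Zeb2, Runx2 and Sparc had 0 bp in bin 1, and all of the EPZ5676 coverage of Runx2 and Sparc lay in bin 2. At Runx1, bin 3 held 1307 bp and bin 1 held 253 bp. At Ltbp1, bin 3 held 3098 bp and bin 1 held 2551 bp, and 12371 of its 14904 control-covered bp also lay in bin 3. At Prrx1, bin 2 held 1856 bp and bin 1 held 1727 bp.

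**Figure D5:**
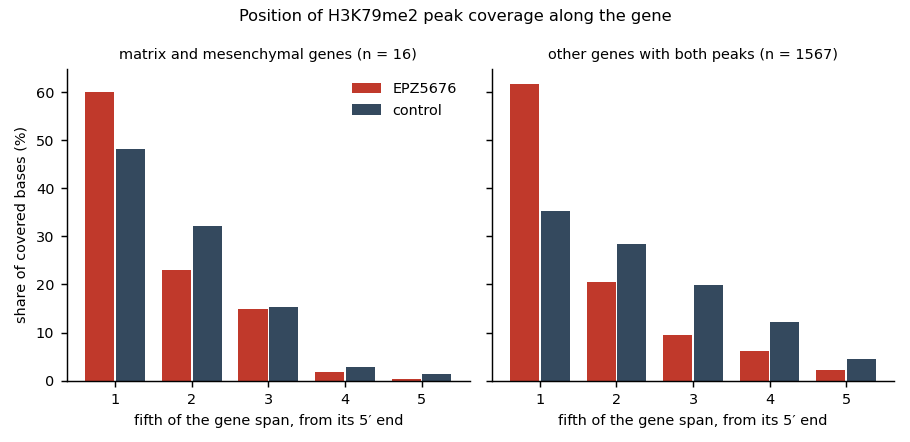
Share of covered bases, in percent, in 5 equal bins of the gene span counted from its 5′ end, after EPZ5676 (left bars) and in the control (right bars), for 16 matrix and mesenchymal genes and 1567 other genes with both peaks. In both panels bin 1 is the highest, at 60.0% and 61.7% for EPZ5676.

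Related genes outside the 41 were followed in 2 further lists. Of 53 other matrix genes, 33 were marked in the control, where the shares of the classes of span summed to 31.9 genes. Of these 33, 10 had an EPZ5676 peak (30.3%), where the shares of their classes summed to 6.69 genes. The longest control coverage was at Lamc1 and Col18a1, of laminin and collagen XVIII, with 1314 and 289 bp under EPZ5676 peaks, against 74678 and 56642 bp under control peaks. Over the 10 the EPZ5676 coverage ranged from 178 bp at P4ha1, of a collagen-modifying enzyme, to 3782 bp at Col8a1. Hspg2, the perlecan gene, had 559 bp after EPZ5676 against 29090 bp in control cultures. Of 39 other mesenchymal regulators and TGF-beta genes, 30 were marked in the control, where the shares of the classes of span summed to 23.3 genes. Of these 30, 16 had an EPZ5676 peak (53.3%), where the class shares summed to 11.4 genes. Tead1, of the Hippo pathway, had 9795 bp under EPZ5676 peaks, against 164589 bp under control peaks, and Prrx2, the relative of Prrx1, had 2514 bp after EPZ5676 and 21953 bp in control cultures. The median ratio in genes with both peaks was 4.76% in the first of these lists and 5.51% in the second, against 15.4% in the 21 genes and 4.15% over all genes with both peaks.

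Markers of the cell types that the cultures could hold stood as follows. Of 13 fibroblast markers, 8 of which are among the 41 genes, 3 were marked after EPZ5676 (Twist2, Prrx1 and Fap) and 6 in the control, where the shares of the classes of span summed to 7.57 control-marked genes. Both lists marked 2 of them, Twist2 and Prrx1, where the class shares summed to 0.73. Both are among the 41 genes, which were chosen with their coverage known. Of the 5 fibroblast markers outside the 41, 3 were marked in the control and 0 of these had an EPZ5676 peak. Col1a2, Col3a1, Dcn, Lum, Postn and S100a4 had no peak in either list. Fap, of a fibroblast surface protease, had 1138 bp under EPZ5676 peaks, against 0 bp under control peaks, while Pdgfra, Pdgfrb and Thy1, surface markers of fibroblasts, had 0 bp under EPZ5676 peaks, against 5855, 4764 and 330 bp under control peaks. Of 17 spermatogonial markers, none had an EPZ5676 peak, where the class shares summed to 3.47 genes. All 17 had a control peak, where the shares of the classes of span summed to 8.8 genes. Over the 17, coverage was 0 bp under EPZ5676 peaks, against 402454 bp under control peaks. Of 11 peritubular myoid and Leydig cell markers none had a peak in either list, where the shares of the classes of span summed to 5.29 control-marked genes. Of 8 Sertoli, 6 endothelial and 5 macrophage markers, 3, 1 and 1 were marked in the control, where these shares summed to 3.97, 3.98 and 3.2 genes. There was 1 EPZ5676 peak among these markers, of 179 bp at Fshr. Several cell types use the 41 genes, and the part that feeder cells had in their peaks was not tested.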

How the data were processed

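H3K79me2 peaks were given as 2 lists without header, recorded under replicate 1 of the EPZ5676 and of the control H3K79me2 group, and the other samples were not analysed here. The submitters' processing notes name mm10, deepTools, Trimmomatic and bcl2fastq (version 2.20.0.422). Aligner, peak caller, use of inputs and pooling: not given in the sources used here. In all but 4 control peaks, the deposited score equals the −log10 q-value times 10, cut to a whole number. The deposited fold enrichment (a ratio) and the deposited −log10 p and q-values were identified by their columns, in the order of a broad peak list, and are the authors' own. The lowest −log10 p was 4.03 in the EPZ5676 list and 2.36 in the control list, so by that value the control list admitted weaker peaks. The lowest −log10 q was 1.04 in the EPZ5676 list and 1.05 in the control list. No column was left unmapped (0 columns).

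Bases of each RefSeq GRCm38.p6 gene span under peaks were counted with Python 3.11.15, pandas 2.3.3 and NumPy 2.4.6, and checked on simulated intervals. The gene table gives spans without exons, so exons and introns were not analysed here; strand came from the RefSeq promoter table. The 41 genes and the other lists were chosen with earlier results on these data known, and the gene classes and counts are descriptions, with no test. All 41 genes are named, with those marked after EPZ5676 in full; of the other lists, examples with an EPZ5676 peak or the longest control coverage are named. Alternatives changed the peak threshold, the peak width, the covered length, the span and the treatment of overlapping genes.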

Additional observations from a re-analysis of the deposited data

How the results depend on the processing

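With at least 500 bp covered, 18 of 29 control-marked matrix and mesenchymal genes had EPZ5676 coverage (13.5% of all control-marked genes, class shares summed to 6.52). Without genes that overlap another protein-coding gene it was 18 of 26 (20.4% of all, class shares summed to 7.65). With peaks of −log10 q of at least 2 in both lists, 9 of 25 had an EPZ5676 peak (3.45% of all, class shares summed to 1.73). Then 9 of the 41 were marked after EPZ5676, over 8573 bp, and 6 of their 11 EPZ5676 peaks lay on control peaks. Bases under both kinds of peak made up 1.53% of control-covered bases. The other lists had 0 (matrix) and 5 (regulators) genes with both peaks. With the control list held to the lowest −log10 p of the EPZ5676 list, 18 genes were marked in the control over 286784 bp. Of these, 14 had an EPZ5676 peak (20.7% of all, class shares summed to 5.20). On control peaks lay 28 of the 121 EPZ5676 peaks, and 5.32% of control-covered bases were under both. With peaks of at least 500 bp, 43 of 57 EPZ5676 peaks lay on control peaks, against 83 of 121 without that limit. The share of control-covered bases under both was then 6.74%, and 5 other matrix genes had both peaks, as with at least 500 bp covered. Without overlapping genes that share of bases was 8.30%. Of 55 alternative values, 39 stayed within 1.5 times the reported one (for the share, within its counting interval). That interval counts each base as independent, which bases under the same peak are not. It is therefore too narrow to measure how stable the share is. Some of the 39 values could not move. Holding the control list to the EPZ5676 limit leaves the EPZ5676 list as it was, and the least covered length does not enter the share. The count of 39 is therefore no measure of stability. Counting only EPZ5676 peaks that overlap a control peak, an alternative chosen after seeing the data, gave 21 of 29 genes (18.2% of all, class shares summed to 7.79). No paired analysis was possible because each condition has 1 peak list. Depth, replicate spread and the caller's background limit every value and could not be assessed from the lists.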

Other observations

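The related genes outside the 41 given here were picked after their values were seen. In Col8a1 and Tgfb2 the EPZ5676 coverage was longer than the control coverage. Col8a1, of a short-chain collagen, had 8 EPZ5676 peaks over 3782 bp and 1 control peak of 424 bp. Tgfb2, of a TGF-beta ligand, had 5 EPZ5676 peaks over 2329 bp and 1 control peak of 675 bp. Fbln5, of the elastic fibre protein fibulin-5, had 1289 bp under EPZ5676 peaks, against 1778 bp under control peaks, and Vcan, of the proteoglycan versican, 446 bp after EPZ5676 and 2142 bp in control cultures. Tgfb2 encodes a ligand of the receptors of Tgfbr1 and Tgfbr2, whose own genes had 205 and 3682 bp under EPZ5676 peaks, against 31339 and 35934 bp under control peaks. The 2 chains of collagen V and the 3 of collagen VI give further pairs whose products work in 1 molecule and whose genes differed: the ratio of EPZ5676 to control coverage was 7.68% at Col5a1 and 31.3% at Col5a2, and 46.1% at Col6a3 with 0 bp after EPZ5676 at Col6a1 and Col6a2. The collagen V genes belong to unlike classes of control coverage. Within these classes, 10 of 343 other genes reached the ratio of Col5a1 and 11 of 87 that of Col5a2. The higher ratio of Col5a2 was thus the less unusual in its class. Erg, an endothelial marker here, had 0 bp under EPZ5676 peaks, against 164284 bp under control peaks.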
